A study of Mus musculus with 14 samples.

Results

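The 9 genes described here are transcripts by which B cells and antigen-presenting cells are usually recognised. They were chosen by symbol, and all 9 are among the 55291 gene symbols that each of 2 deposited tables lists. Ighm, Igkc and Jchain encode the heavy chain constant region of IgM, the kappa light chain constant region and the joining chain of secreted antibody. Cd79a and Cd79b encode the signalling subunits of the B cell receptor, and Ms4a1 encodes the surface protein CD20. Cd74 encodes the invariant chain, and H2-Aa and H2-Ab1 encode the alpha and beta chains of the class II molecule I-A. The working description of these genes is residual RNA of B cells or antigen-presenting cells in CD8+ T cell samples. The 9 genes did not follow 1 common pattern in these libraries, so each is described under its own name.

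Messenger RNA was sequenced in 14 mouse libraries from 2 experiments, both labelled as CD8+ T cells of wild-type genotype. In the first, unsorted splenocytes of OT-1 mice, whose transgenic T cell receptor recognises an ovalbumin peptide, were cultured with 1 µg/mL of OVA 257-264 and 200 U/mL IL-2 for 3 days and expanded for 4 more. Of these cultures, 4 received vehicle and 4 received 100 nM ND-646, which inhibits acetyl-CoA carboxylase, the enzyme that makes malonyl-CoA for fatty acid synthesis. In the second, CD8+ T cells were enriched with a kit and sorted by flow cytometry from C57BL/6 mice bearing MCA205 fibrosarcomas under the skin for 14 days, giving 3 spleen libraries and 3 tumour libraries of pooled infiltrating cells. Both culture arms share the peptide, the cytokine and the receptor transgene, and both arms of the second experiment come from tumour-bearing mice. The labels do not state whether libraries of 1 group came from separate animals, so the p-values measure the spread between libraries, which may be technical.

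B cells build their receptor from a membrane immunoglobulin and the Cd79a and Cd79b subunits, and plasma cells secrete immunoglobulin, with Jchain linking IgM and IgA polymers. Class II molecules present peptides to CD4+ T cells. The invariant chain guides them to the compartments where peptides are loaded. Transcription of the class II genes and of Cd74 depends on CIITA, a coactivator made constitutively in B cells and dendritic cells and induced by interferon gamma in many other cells. Mouse T cells are known for making little class II of their own.

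Libraries totalled 23463100 to 33807700 estimated counts in the cultures and 19577900 to 21024500 in the sorted samples, to 6 significant digits. Levels are given as CPM, counts normalised to 1000000 of the scaled library. A count of 3 was worth 0.0878 to 0.129 CPM in the cultures and 0.143 to 0.154 CPM in the sorted samples, and levels below that are not distinguished from 0. CD8 T cell genes were abundant in every library: the summed level of 17 such genes ran from 7028 to 7355 CPM with vehicle, 6971 to 7217 with ND-646, 10101 to 10189 in spleen and 4749 to 6401 in tumour. In the tumour libraries, 12 fibroblast and fibrosarcoma genes summed to 10522 to 15245 CPM, against 1.70 to 16.1 in spleen. In bulk RNA, fewer cells of a type and less RNA per cell cannot be told apart. The experiments were separate, so a difference in level across them cannot be told apart from the experiment.

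**Figure D1:**
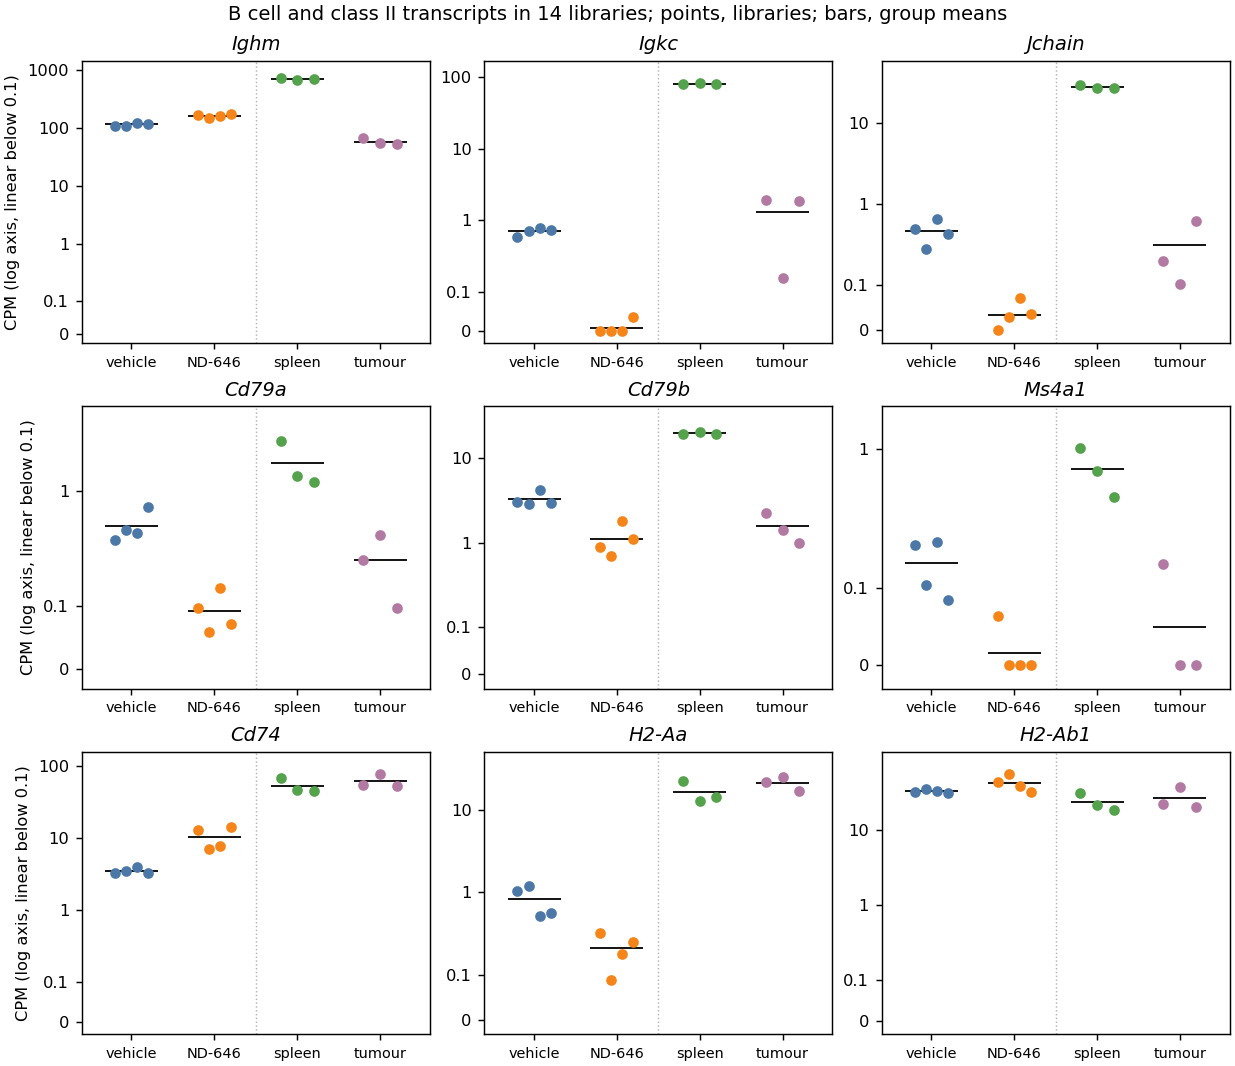
Level of each of the 9 genes in every library, in CPM on a log axis that is linear below 0.1, by group; points are libraries and bars are group means. The immunoglobulin and Cd79 genes were highest in spleen, while H2-Ab1 stayed between 18.7 and 55.4 CPM in all 14 libraries.

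Counted over the set, 7 of the 9 genes entered the culture test, where 2 were higher with ND-646 and 4 lower. Over all 14251 genes tested, 56.3% were called, 29.8% higher and 26.5% lower. Between spleen and tumour 8 entered the test, and 5 were lower in tumour and 0 higher, beside 83.8% called over 15042 genes, 43.6% higher and 40.2% lower (6551 and 6051 genes). Scaled by the CD8 T cell genes, 10138 genes were higher and 1974 lower, and 3 of the 8 were higher and 5 lower. The median log2 change was -1.56 over the 7 and -3.20 over the 8, against 0.01 and 0.03 over all genes tested. A low gene such as Igkc in the cultures entered the test only through the group where it was counted, so these counts and medians lend no support to a direction. Calls were this common among all genes, so the values of each gene are given below beside the call. The same shares stand beside the gene lists counted below. The share of all genes whose groups did not overlap is not given here, so a lack of overlap only describes the gene named.

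**Figure D2:**
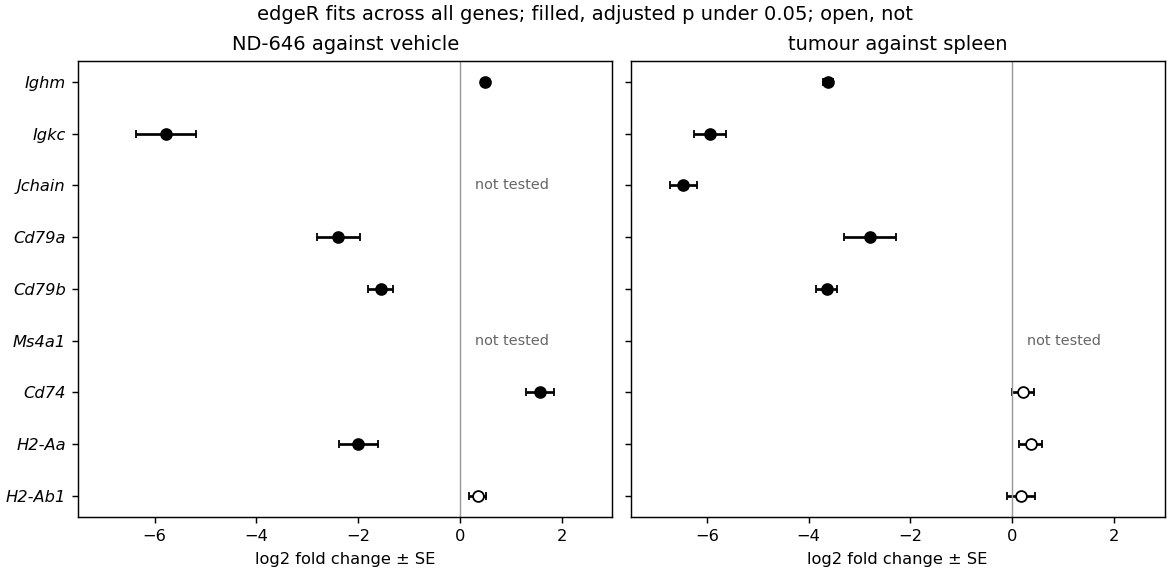
Log2 change of each tested gene of the set with its standard error, ND-646 against vehicle and tumour against spleen, from edgeR's quasi-likelihood fit over all genes; filled points passed an adjusted p of 0.05 and open points did not. In the cultures Ighm (0.50) and Cd74 (1.58) lie above 0 and the B cell receptor genes below it, and in tumour the class II genes lie near 0 and the other 5 between -6.46 and -2.79.

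The immunoglobulin genes are described first, in the cultures. Ighm rose with ND-646, whereas the light chain, the joining chain and the B cell receptor subunits were lower. Ighm counts were 2673, 3108, 2867 and 2787 with vehicle, and 5322, 5013, 4577 and 4846 with ND-646. Every ND-646 library was above every vehicle library, and the means were 115 ± 7.11 and 162 ± 11.2 CPM (SD, n = 4 each). The log2 change was 0.50 ± 0.05 (SE; adjusted p = 7.6e-07).

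Igkc gave 14, 20, 18 and 17 counts with vehicle and 0, 0, 0 and 1 with ND-646. The groups did not overlap, and the 69 counts against 1 correspond to a level 84.6 times higher with vehicle (95% exact interval 14.7 to 3388, counting error only; adjusted p = 1.47e-07). Jchain gave 12, 8, 15 and 10 counts with vehicle and 0, 1, 2 and 1 with ND-646. Its highest ND-646 library lay below its lowest vehicle library, but it was too low to enter the test. Fitted without the filter on low counts, its log2 change was -3.62 ± 0.63 (adjusted p = 7.73e-08). That fit gave Igkc an adjusted p of 3.49e-16, far below that of the main test, so its p-values are not comparable with the main ones.

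Of the B cell receptor genes, Cd79b gave 75, 82, 99 and 69 counts with vehicle and 28, 24, 51 and 31 with ND-646. All 4 ND-646 libraries were lower, and the log2 change was -1.56 ± 0.24 (adjusted p = 3.54e-05). Cd79a gave 9, 13, 10 and 17 counts with vehicle against 3, 2, 4 and 2, again without overlap. Its log2 change was -2.39 ± 0.42 (adjusted p = 9.69e-05). Ms4a1 was near the limit of detection, with 5, 3, 5 and 2 counts against 2, 0, 0 and 0. The pooled 15 counts against 2 correspond to a vehicle level 9.19 times higher (95% exact interval 2.14 to 82.8), and the gene did not enter the test. In the fit without the filter its log2 change was -2.90 ± 0.97 (adjusted p = 0.0103).

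The same 6 immunoglobulin and B cell genes were all counted far more in spleen than in tumour in the second experiment. Ighm gave 14804, 13700 and 14311 counts in spleen and 1348, 1046 and 1095 in tumour, or 704 ± 17.0 against 57.5 ± 7.89 CPM (SD, n = 3 each). The lowest spleen library, at 684 CPM, stood far above the highest tumour library, at 66.6, and the log2 change was -3.61 ± 0.09 (adjusted p = 2.91e-09). Igkc gave 1644, 1672 and 1613 counts in spleen and 38, 3 and 39 in tumour. The spleen libraries were close together, the tumour libraries were spread, and the log2 change was -5.94 ± 0.32 (adjusted p = 9.72e-07). Jchain gave 612, 549 and 550 counts in spleen and 4, 2 and 13 in tumour. These groups lay far apart too, with a log2 change of -6.46 ± 0.27 (adjusted p = 2.68e-08).

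Cd79b gave 397, 410 and 388 counts in spleen and 46, 28 and 21 in tumour, a log2 change of -3.64 ± 0.21 (adjusted p = 1.89e-07). Cd79a gave 56, 27 and 24 counts against 5, 8 and 2, a log2 change of -2.79 ± 0.52 (adjusted p = 0.000666). Neither gene overlapped between the groups, and spleen replicate 1 held more Cd79a than the other spleen libraries. Without that library the Cd79a change was -2.30 (adjusted p = 0.0029). Ms4a1 gave 21, 14 and 9 counts in spleen and 3, 0 and 0 in tumour, a spleen level 14.6 times higher (95% exact interval 4.69 to 73.6), and did not enter the test.

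The genes did not fall in proportion to each other. For every 1000 Ighm counts, the vehicle cultures held 5.24 to 6.44 Igkc counts, the ND-646 cultures 0 to 0.206, the spleen samples 111 to 122 and the tumour samples 2.87 to 35.6. The ratio in the cultures was thus low in both arms beside the sorted spleen cells, and lower with ND-646 in every library than with vehicle in any. For every 100 Cd79b counts there were 3572 ± 491 Ighm counts with vehicle, 3586 ± 213 in spleen and 3960 ± 1158 in tumour. The ND-646 cultures held 16125 ± 5240 (SD, n = 4), and their lowest library, at 8975, was above every library of the other 3 groups. Estimated counts do not tell full-length Ighm transcripts from transcripts that start within the locus, so which form was counted was not measured.

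Variable segments gave a second view of rearranged immunoglobulin transcripts. In spleen, the 183 heavy chain V segment symbols held 530 to 575 counts per library, spread over 63 to 65 segments, and the 160 kappa V segment symbols held 782 to 840 counts over 52 to 65 segments. In tumour these sums were 1 to 11 and 0 to 12 counts. The vehicle cultures held 8 to 14 heavy chain and 5 to 10 kappa V segment counts, and the ND-646 cultures 1 to 5 and 0 to 3. Per 1000 Ighm counts, heavy chain V segments came to 4.08 ± 0.735 with vehicle, 0.670 ± 0.381 with ND-646, 39.0 ± 2.78 in spleen and 5.17 ± 3.75 in tumour. Short segments with near-identical copies share reads in such tables, so their sums are less certain than the constant genes.

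**Figure D3:**
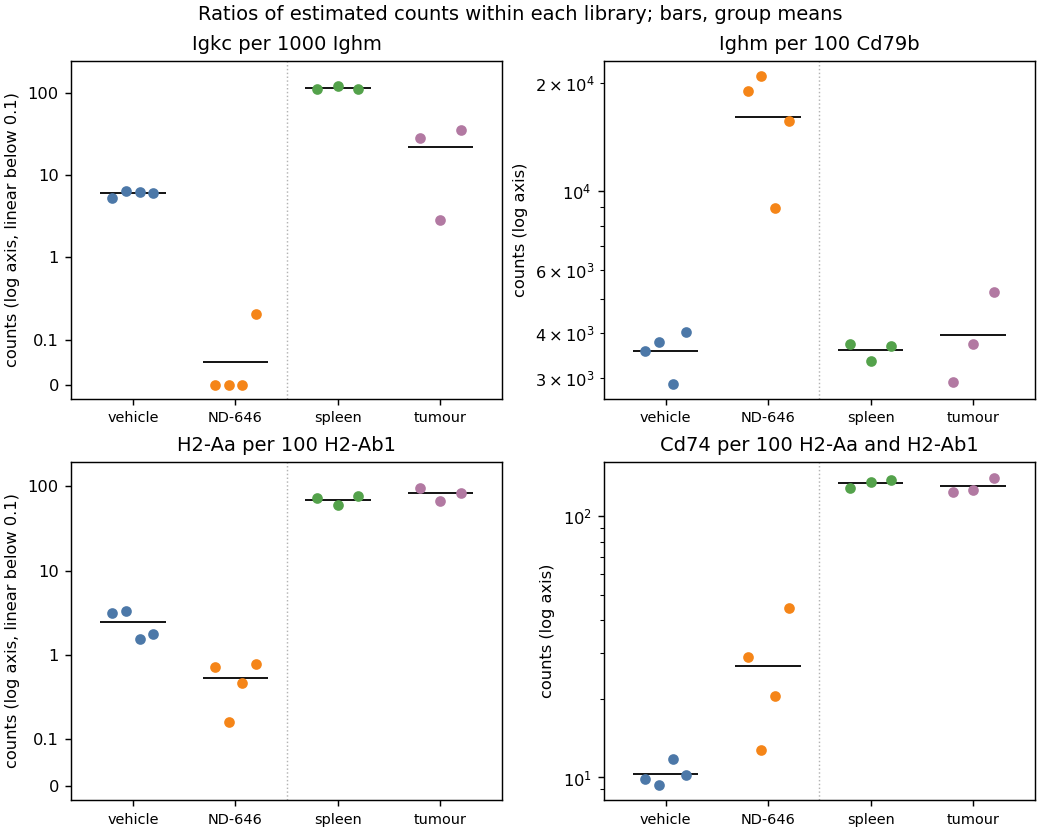
Ratios of estimated counts within each library between genes of the set, on log axes (linear below 0.1 where the axis reaches 0); points are libraries, bars are group means and the panels name each ratio. Igkc per 1000 Ighm was 111 to 122 in spleen and at most 0.206 with ND-646, and Ighm per 100 Cd79b was higher in all 4 ND-646 libraries than in any other.

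Of 10 further immunoglobulin constant genes, only Ighd passed the filter in the cultures. Ighd, the IgD heavy chain carried by naive B cells, fell from 1.67 to 0.494 CPM, by 1.74 ± 0.25 on the log2 scale (adjusted p = 1.2e-05), while Ighm rose. Igha, the IgA heavy chain, gave 4 to 10 counts in each vehicle library and 0 in all 4 ND-646 libraries, at least 10.6-fold lower against a floor of 3 counts over the group. Between spleen and tumour 8 of the 10 were tested and all 8 were lower in tumour, beside 40.2% of all genes tested. Ighg1, Ighg2b, Ighg2c, Ighg3 and Iglc2 were at 0 in every tumour library and passed the filter only through spleen. The count of 8 therefore lends no support to a direction. Ighg2b gave 249 to 507 counts in spleen and Ighg2c 236 to 650, and both gave 0 in every tumour library, at least 369-fold and 458-fold lower. Igha differed less, with 143 to 245 counts in spleen and 25 to 60 in tumour, a log2 change of -2.11 ± 0.32 (adjusted p = 0.00022).

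Other B cell genes from a list of 30 moved in both directions. In the cultures 15 were tested, 5 were higher with ND-646, 5 were lower and 5 did not pass. The median log2 change was -0.05, against 0.01 over all genes tested. Cd22, an inhibitory B cell receptor, fell by 2.48 ± 0.44 (adjusted p = 0.000103). The higher genes included Syk, a kinase used by many blood cells, at a log2 change of 1.57, and Bach2, a repressor that T cells also express, at 0.21.

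Between spleen and tumour 20 of the 30 were tested, 11 were lower in tumour, 5 were higher and 4 did not pass, with a median log2 change of -1.20 against 0.03 over all genes. Scaled by the CD8 T cell genes, 9 were lower and 7 higher. Pou2af1, a coactivator of immunoglobulin genes, fell from 26.7 to 1.36 CPM. Cd22 fell from 8.61 to 1.70 CPM. Ebf1, a B cell transcription factor that stromal and adipose cells also express, rose from 0.116 to 36.7 CPM, alongside the fibroblast genes above. Its source was not tested.

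Of 12 plasma cell genes, 10 were tested in each experiment. Over all genes tested, 29.8% were higher and 26.5% lower with ND-646, and 43.6% higher and 40.2% lower in tumour. With ND-646, 2 rose and 6 fell, among them Xbp1, which drives the secretory programme, at a log2 change of 0.39, and Prdm1, which encodes BLIMP-1 and is also made by T cells, at -0.81. In tumour, 7 rose and 1 fell, and scaled by the CD8 T cell genes 8 rose and 1 fell. The lower gene was Mzb1, a chaperone of antibody-secreting cells, with 84 counts in spleen and 2 in tumour, 41.9 times higher in spleen (95% exact interval 11.2 to 351). Sdc1, a proteoglycan of plasma cells and of epithelial and stromal cells, rose by 6.92 on the log2 scale.

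The class II genes behaved differently from the B cell genes. Short stretches of their promoters are shown because the X and Y boxes, through which CIITA acts, are known for being shared by the class II genes. The motif searched was TGATTGG or its reverse complement CCAATCA, the core of the Y box, in RefSeq promoter windows of the mouse build GRCm38.p6. It was present in 6 of 16 windows of the class II and class II loading genes (37.5%), against 2568 of all 32851 windows (7.82%). Among the 9 genes, the table held windows for Jchain, Cd79a and H2-Aa, and only that of H2-Aa held the motif. A match is a description of letters and not a measured site. Each line gives 50 bases, 5′ to 3′ on the gene's strand, with the motif in capitals. They come from chr17:34287864-34287913 (minus strand) for H2-Aa and, on the plus strand, chr17:34305766-34305815 for H2-Eb1, chr17:34153088-34153137 for H2-DMb1, chr17:34145117-34145166 for H2-DMb2, chr17:34092294-34092343 for H2-Oa and chr17:34238806-34238855 for H2-Ob.
H2-Aa: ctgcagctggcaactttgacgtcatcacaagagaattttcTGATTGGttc
H2-Eb1: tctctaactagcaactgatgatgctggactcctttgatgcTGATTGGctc
H2-DMb1: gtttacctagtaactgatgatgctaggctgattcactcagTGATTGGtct
H2-DMb2: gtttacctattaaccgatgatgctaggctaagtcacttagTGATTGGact
H2-Oa: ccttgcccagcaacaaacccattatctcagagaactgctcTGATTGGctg
H2-Ob: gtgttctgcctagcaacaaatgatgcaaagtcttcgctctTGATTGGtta

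The motif began 50 bases before the annotated start in H2-Aa, 61 in H2-Eb1, 63 in H2-DMb1, 92 in H2-DMb2, 45 in H2-Oa and 59 in H2-Ob. Between spleen and tumour, genes that share it moved in different directions, H2-DMb1 higher in tumour and H2-Oa and H2-Ob lower. In the cultures H2-Aa, H2-Eb1 and H2-Oa were lower with ND-646, and H2-DMb1, H2-DMb2 and H2-Ob did not pass. The windows of H2-DMa, which rose in the cultures, did not hold the motif.

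In the cultures, the 3 class II genes of the set went 3 ways: Cd74 rose, H2-Aa fell, and H2-Ab1 did not pass the main test, though it passed in some alternatives. Cd74 gave 81, 99, 94 and 77 counts with vehicle and 405, 242, 224 and 406 with ND-646. All ND-646 libraries were above all vehicle libraries, replicates 1 and 4 the highest, at 3.53 ± 0.352 against 10.6 ± 3.61 CPM (SD, n = 4 each). The log2 change was 1.58 ± 0.28 (adjusted p = 0.00183). H2-Aa gave 25, 34, 12 and 13 counts with vehicle and 10, 3, 5 and 7 with ND-646. The groups did not overlap, and the log2 change was -2.0 ± 0.39 (adjusted p = 0.000238).

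H2-Ab1 gave 796, 1020, 784 and 743 counts with vehicle and 1388, 1893, 1087 and 907 with ND-646. As levels these were 31.7 to 35.7 and 32.1 to 55.4 CPM, so the groups overlapped at ND-646 replicate 4. The log2 change was 0.35 ± 0.17 (adjusted p = 0.124), and without that library it was 0.45 (adjusted p = 0.0115). With limma-voom on all 8 libraries H2-Ab1 also passed, at 0.33 (adjusted p = 0.0401). The proportion of the partner chains in the counts differed between the experiments and between the culture arms. For every 100 H2-Ab1 counts there were 1.53 to 3.33 H2-Aa counts with vehicle and 0.158 to 0.772 with ND-646, but 60.0 to 77.1 in spleen and 67.1 to 97.1 in tumour. The RefSeq windows used here hold no entry for H2-Ab1, and the GENCODE annotation lists 8 transcripts for it, 3 of them coding. The first annotated start lies 5520 bases before the next. Which transcript gave the counts was not measured.

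Between spleen and tumour, none of the 3 class II genes passed the test, while the other 5 tested genes of the set were lower in tumour. Cd74 gave 1433, 924 and 913 counts in spleen and 1117, 1547 and 1101 in tumour. H2-Aa gave 468, 256 and 289 against 443, 494 and 359, and H2-Ab1 gave 645, 427 and 375 against 456, 736 and 424. Spleen replicate 1 was the highest spleen library for all 3 genes, tumour replicate 2 the highest tumour library, and the groups overlapped for each. The log2 changes were 0.22 ± 0.22 for Cd74 (adjusted p = 0.372), 0.37 ± 0.23 for H2-Aa (adjusted p = 0.159) and 0.18 ± 0.28 for H2-Ab1 (adjusted p = 0.576).

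Spleen replicate 1 also held 82 Col3a1 counts, against 8 and 1 in the other spleen libraries. Without it, Cd74 and H2-Aa were called higher in tumour, at log2 changes of 0.47 (adjusted p = 0.0312) and 0.68 (adjusted p = 0.00592). Scaling by the CD8 T cell genes, which moved the median of all genes to 0.93, also gave calls for all 3: 1.15 for Cd74, 1.29 for H2-Aa and 1.12 for H2-Ab1.

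**Figure D4:**
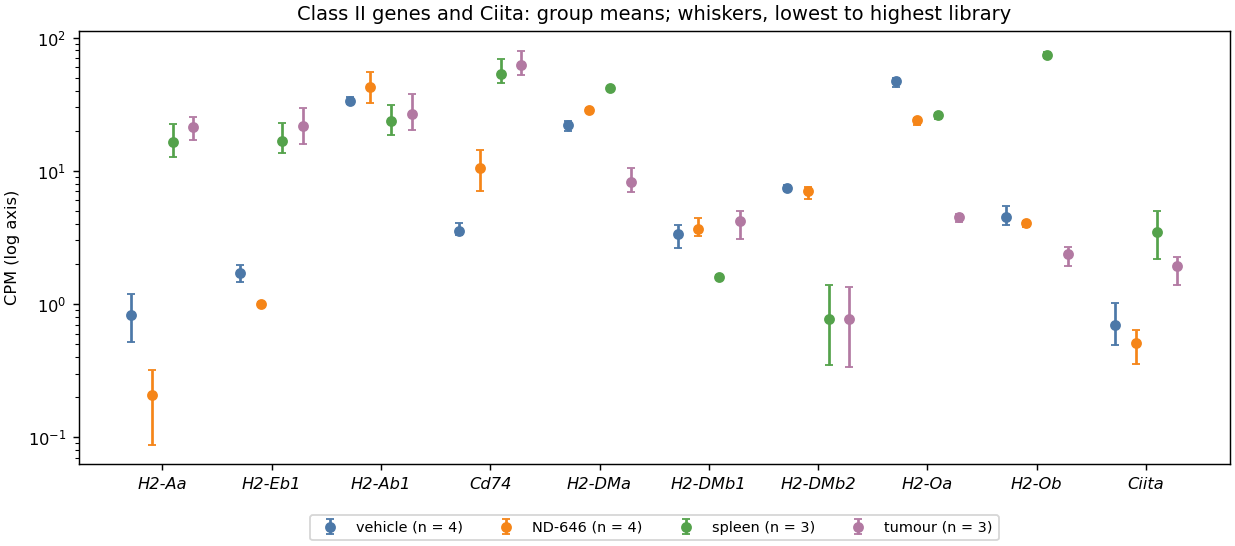
Levels of the class II genes and Ciita by group, in CPM on a log axis; points are group means and whiskers run from the lowest to the highest library. H2-Aa and H2-Eb1 were 12.8 or higher in all sorted samples and below 2 in all cultures, while H2-Ab1 was between 18.7 and 55.4 throughout.

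Of 13 other class II and loading genes, 11 were tested in the cultures, of which 3 were higher with ND-646, 5 were lower and 3 did not pass, with a median log2 change of -0.14. H2-Eb1, the beta chain of the I-E molecule, fell from 1.70 to 0.999 CPM, by 0.76 ± 0.18 (adjusted p = 0.0019), in the same direction as H2-Aa. H2-DMa, a subunit of the peptide exchange factor, rose by 0.37 on the log2 scale, and H2-Oa, a subunit of its inhibitor, fell by 0.98. H2-Ea, the I-E alpha chain, which mice of the H2-b haplotype do not transcribe, was at 0 in all 14 libraries. Among proteases of the loading compartment, Ctsl rose by 0.81, whereas Ctss fell by 0.62 and Lgmn by 1.73.

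In the sorted samples 12 of these 13 genes were tested, with 5 higher and 5 lower in tumour and a median of 0.17. Scaled by the CD8 T cell genes, 6 were higher and 4 lower. H2-Eb1 was 16.8 CPM in spleen and 21.6 in tumour and did not pass (0.36 ± 0.28, adjusted p = 0.266), as for H2-Aa. It was called higher in tumour without spleen replicate 1 (0.67, adjusted p = 0.035) and when scaled by the CD8 T cell genes (1.30, adjusted p = 0.00362). Per 100 H2-Aa counts there were 97.6 to 105 H2-Eb1 counts in spleen and 86.9 to 117 in tumour. The inhibitor subunit H2-Ob, which B cells express, fell from 73.5 to 2.38 CPM, a log2 change of -4.95 ± 0.11 (adjusted p = 1.18e-09). H2-DMa fell from 41.5 to 8.30 CPM and H2-Oa from 26.2 to 4.53, while H2-DMb1 rose from 1.59 to 4.23. Ctsl rose from 11.7 to 375 CPM. H2-DMb2 was at 0.765 CPM in spleen and 0.770 in tumour.

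The path from interferon gamma to CIITA was measured over 15 genes. With ND-646, 6 were higher, 2 lower and 7 did not pass. Ifng itself fell by 1.09 on the log2 scale, while its receptor chains rose, Ifngr1 by 0.61 and Ifngr2 by 1.43. Ciita was low, at 0.698 ± 0.226 CPM with vehicle and 0.512 ± 0.146 with ND-646 (SD, n = 4 each), and did not pass (-0.47 ± 0.30, adjusted p = 0.193). The vehicle and ND-646 libraries overlapped for Ciita and did not for Cd74.

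In tumour, 6 of the 15 genes were higher and 8 lower, with a median log2 change of -0.17. Scaled by the CD8 T cell genes, 10 were higher and 1 lower, with a median of 0.73. Ifng rose by 5.83 and Ifngr1 by 1.85. Ciita was 3.47 ± 1.43 CPM in spleen and 1.93 ± 0.474 in tumour (SD, n = 3 each), with a log2 change of -0.85 ± 0.33 (adjusted p = 0.0367). That call was lost in 5 of the 6 fits that left out a library. Without spleen replicate 1, which held 104 of the 212 spleen counts, the change was -0.45 (adjusted p = 0.208), and scaled by the CD8 T cell genes it was 0.07.

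Genes of other cell types also differed between groups, not always in the direction of the 9 genes. In the cultures, 17 macrophage, monocyte and neutrophil genes summed to 328 to 339 CPM with vehicle and 70.9 to 84.1 with ND-646. Of these, 9 were not tested, and 7 of the 8 tested were lower and 0 higher, beside 26.5% lower and 29.8% higher over all genes. Spp1, Ccr2 and Cd68 had the highest mean level over both arms, and T cells also express Spp1 and Ccr2. Most of the sum came from Spp1, which fell from 229 to 54.1 CPM, and Ccr2, which fell from 66.5 to 12.3. Csf1r, the tested gene that did not pass, was at 1.22 CPM with vehicle and 1.14 with ND-646 (log2 change -0.11, adjusted p = 0.783). C1qc, S100a8 and S100a9 were at 0 in both arms, and C1qa and C1qb were at 0 with ND-646 as well. C1qa and C1qb were too low to enter the test. In the fit without the filter neither differed between the arms (adjusted p = 0.25 for each). Of the dendritic cell genes, 6 of 12 were tested, 2 were lower and 1 higher, and their sum was 67.9 to 75.6 and 58.6 to 71.6 CPM, most of it Batf3, which activated T cells also express. Itgax fell from 5.29 to 0.564 CPM and Xcr1 from 4.53 to 0.181, Zbtb46 rose from 0.977 to 2.81, and Siglech was at 0 in both arms. Zbtb46 was named after its values were seen, as the gene of the list that rose. Csf1r was likewise named after its values were seen. H2-Aa, H2-Eb1, Igkc and Cd79a fell in the arm in which the summed macrophage list, mostly Spp1 and Ccr2, was lower. Cd74 and Ighm rose there. The dendritic cell sums overlapped between the arms. The part of such cells in each result was not tested.

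In the sorted samples the same macrophage list summed to 20.1 to 28.8 CPM in spleen and 414 to 531 in tumour. Of 13 tested genes, 11 were higher and 0 lower, beside 43.6% higher and 40.2% lower over all genes. C1qa and Cd14 entered the test only through tumour. Spp1, at 385 CPM, made up most of the tumour sum. C1qa, Fcgr1, Cd14 and S100a8 were at 0 in spleen, and none of the 17 was at 0 in all tumour libraries. The dendritic cell list summed to 16.6 to 27.3 CPM in spleen and 338 to 423 in tumour, where Fscn1, which tumour cells also express, reached 320 CPM; 7 of 9 tested genes were higher and 1 lower. Itgax rose from 11.4 to 31.1 CPM. In the main scaling, Cd74, H2-Aa and H2-Ab1 overlapped between groups in which these lists differed. Scaled by the CD8 T cell genes, they did not overlap. Cd74 was then 33.5 to 50.5 CPM in spleen and 64.8 to 125 in tumour. H2-Aa was 9.29 to 16.5 and 23.6 to 39.8, and H2-Ab1 was 13.8 to 22.7 and 26.5 to 59.4. The part of macrophages, dendritic cells or tumour cells in the level of these genes was not tested.

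Across the 14 libraries, the immunoglobulin and B cell genes resembled Cd79a more than the class II genes did. With Cd79a as reference, Pearson's r of log2(CPM + 0.5) was 0.93 for Cd79b, 0.92 for Ms4a1, 0.89 for Jchain, 0.87 for Igkc and 0.73 for Ighm, but 0.53 for H2-Aa, 0.34 for Cd74 and -0.40 for H2-Ab1. With Cd74 as reference, H2-Aa had an r of 0.88 and H2-Ab1 of -0.53. Among genes of at least 5 mean CPM in some group, those most like Cd79a were Chtf8, Cpsf1, Lair1, Ppp1r18 and Tmppe (r of 0.94 to 0.96), and those most like Cd74 were St7l, Nr1d2, Rundc3a, Psap and Aamp (r of 0.98 to 0.99). These values describe 14 points that share 4 groups and 2 experiments.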

How the data were processed

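Each experiment has its own table of estimated counts, which the authors deposited by gene symbol. STAR, Salmon and DESeq2 are named, with no version, per the submitters' processing notes. The genome build, annotation and strand setting were not given in the sources used here. Libraries were poly(A)-selected with a directional kit and read as pairs of 150 bases, per the labels' protocols. Of the deposited estimated counts, 9.16% and 9.15% were not whole (tolerance 1e-06), so they were rounded. All 14 libraries were used.

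Each table was fitted on its own with edgeR 4.0.16 in R 4.3.3 (quasi-likelihood test, robust, TMM scaling, filterByExpr with a minimum count of 10), and p-values were adjusted by Benjamini-Hochberg over all genes tested, with a threshold of 0.05. All adjusted p-values in the text come from that test unless another is named. CPM used the TMM-scaled totals. Intervals of count ratios are exact at 95% and cover counting error only. On simulated counts with known changes, 94% of 1.5-fold changes were recovered over 14251 genes of the culture comparison and 90% over 15042 genes of the tumour comparison. At 1.25-fold, 68% and 40% were recovered. The simulation used 1 fixed spread for all genes and changed only 200, all above 1 CPM. Recovery was therefore not measured for lower genes such as Igkc, Cd79a and H2-Aa in the cultures. Nor was it measured for genes that varied more between libraries than that spread, such as Cd74, H2-Aa and H2-Ab1 in the sorted samples. The recovered shares do not apply to these genes. Replicate libraries differed by more than sampling noise.

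Groups came from the titles. Members and gene lists were chosen with earlier results of these data known. Text genes are all members, genes of the immunoglobulin, B cell, plasma cell, class II and CIITA lists, the 3 highest tested genes and the markers at 0 of other lists, and the 5 genes most like Cd79a and Cd74. Alternatives were DESeq2 1.42.0, limma-voom (limma 3.58.1), RLE scaling, scaling by CD8 T cell genes, other filters, a replicate block and leaving out each library. Promoters came from RefSeq and transcript numbers from GENCODE. Some genes of the lists are not reported here by name.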

Additional observations from a re-analysis of the deposited data

Results flagged for a closer look

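In the groups of 4 libraries, 6 values stood apart from the other 3 by more than Dixon's 95% limit, among 40 groups tested. Chance gives about 1 in 20 where values are spread normally. That rate does not hold for the Igkc and Ms4a1 values below, because the other 3 libraries were at 0 and any count would pass. Igkc was counted in ND-646 replicate 4 only, at 0.0354 CPM from 1 count, which also set its ratio there to 0.206 per 1000 Ighm counts. Ms4a1 was counted in ND-646 replicate 1 only, at 0.0636 CPM from 2 counts. Both levels lie below that of 3 counts.

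Cd79b reached 4.25 CPM in vehicle replicate 3, against 3.07 in the next library. Ighd per 1000 Ighm counts was 1.31 in ND-646 replicate 3, and the nearest of the others was 3.38. Heavy chain V segments per 1000 Ighm counts came to 2.99 in vehicle replicate 1, against 4.31 in the nearest.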

How the results depend on the processing

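Of 871 fitted changes under the alternatives, 841 kept their direction and their side of the threshold, 14 lost a call, 10 gained one and 6 changed sign. With a minimum of 1 CPM, 3 of the 9 genes were called in the cultures (2 higher, 1 lower), because fewer of them were tested. Scaling by the CD8 T cell genes called 8 in the sorted samples (3 higher, 5 lower), and the cause was not tested. The changes of sign were Ciita in tumour under that scaling (0.0724), H2-Ab1 in tumour without tumour replicate 2 (range -0.12 to 0.45 over fits leaving out a library), and Ebf1 in the cultures (range -0.32 to 0.16). Leaving out each library gave 7424 to 7932 genes and 6 to 8 of the 9 genes called in the cultures, and 12342 to 12928 and 5 to 7 in the sorted samples. H2-Ab1 passed in the cultures with limma-voom (adjusted p = 0.0401). The calls of Irf1 in the cultures and Ciita in tumour were lost in several fits. Same-numbered libraries did not deviate together (r of -0.17 to 0.05), and not every library correlated best with its own number. A replicate block gave 7864 and 12492 genes called and 7 and 5 of the 9. With that block H2-Ab1 passed in the cultures (0.33, adjusted p = 0.0197). Depth limits Ms4a1 everywhere, and Igkc, Jchain, Cd79a and H2-Aa with ND-646, where few counts were found.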
